A study of Mus musculus with 6 samples.

Results

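The cell cycle genes examined here are 47 genes of DNA replication and cell division, chosen by name. They comprise 17 genes of S phase, in which DNA is copied, and 30 genes of mitosis and the approach to it. All 47 were found among the 52459 rows of the gene table, and all 47 had enough reads to be tested. They were measured by RNA sequencing in mouse bone marrow derived macrophages of strain C57BL/6. Marrow cells had been plated with GM-CSF, a cytokine that drives them towards macrophages and related myeloid cells, and either DMSO, the solvent control, or RIP1i was added overnight from day 7. Each group held 3 libraries, and GM-CSF was common to both. The labels give no dose, no chemical name for RIP1i, no age or sex of the mice, and do not say whether the replicates were separate cultures or animals, so the p-values rest on variation among these libraries alone, and that may be technical.

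A dividing cell first licenses its replication origins by loading the MCM helicase, then fires them in S phase, and later condenses and separates its chromosomes in mitosis. Genes of S phase are switched on mainly by E2F factors. Genes of mitosis are held down at CHR elements by the DREAM complex in resting cells. They are switched on later by the MuvB core of that complex with MYBL2 and FOXM1, and by NF-Y at CCAAT boxes. Macrophages grown from marrow pass from dividing precursors to cells that mostly have left the cycle, and many of these genes are lowered as cells leave it. In bulk RNA, more cells that express a gene and more of its RNA per cell cannot be told apart.

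RIP1i and DMSO libraries differed little in cell cycle genes, none of which passed the test, and nearly all were fitted slightly higher in RIP1i. With edgeR's quasi-likelihood test 0 of 47 had an adjusted p under 0.05, against 0 of 14857 genes tested (0%), and the smallest adjusted p of any gene was 0.777. Of the 47, 46 were fitted higher in RIP1i (44 with median-of-ratios scaling), against 51.0% of all genes tested. The median log2 fold change (RIP1i over DMSO, so positive values are higher in RIP1i) was 0.076 for the S phase genes and 0.11 for the mitosis genes, against 0.0025 for all genes tested. These medians correspond to levels 5.39% and 7.98% higher. At an unadjusted p under 0.05 there were 8 of the 47, against 6.21% of all genes in either direction. All 8 were higher in RIP1i, against 3.59% of all genes higher, and 0 were lower, against 2.62% of all genes lower. In 8 of the 47 every RIP1i library lay above every DMSO library, against 7.36% of all genes, and in 0 of the 47 every RIP1i library lay below, against 6.18%. The members share libraries and vary together, so these counts are not 47 independent observations.

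Promoter sequence was not used to choose the genes, and 3 elements were counted in the promoters of each class. RefSeq promoter windows of build GRCm38.p6, from 250 bases before to 50 bases after the start site, matched 39 of the 47 genes. Both strands were searched for 3 motifs. The CHR was TTTGAA or else TTTAAA, and the box was CCAAT. The E2F motif was TTCCCGC in one form, with TTGGCGC as another form, TTCGCGC as a further form and finally TTGCCGC as the last. A gene counted when any of its windows held a match. CHR matches were found in 20 of 25 mitosis genes (80%) and 5 of 14 S phase genes (35.7%), against 30.6% of all 27025 genes with a window. CCAAT boxes were found in 19 of 25 mitosis genes (76.0%) and 8 of 14 S phase genes (57.1%), against 41.1% of all. E2F matches were found in 8 of 14 S phase genes (57.1%) and 5 of 25 mitosis genes (20%), against 10.9% of all. Among the 10234 tested genes with a window the shares were 22.9% for CHR, 42.7% for CCAAT and 18.9% for E2F. An E2F match of the form TTGGCGC overlaps a CCAAT box wherever the other strand reads GCGCCAAT. A match is a run of letters and not a shown binding site.

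The S phase windows below belong to Pcna and Rrm2, the S phase genes with the smallest p-values that held a motif, and to Cdc6, added after its values were seen because it holds an E2F match. Each line runs 5′ to 3′ on the gene's strand, from 150 bases before to 30 bases from the start site onward, with motif matches in capitals.
Pcna (chr2:132253151-132253330, minus strand): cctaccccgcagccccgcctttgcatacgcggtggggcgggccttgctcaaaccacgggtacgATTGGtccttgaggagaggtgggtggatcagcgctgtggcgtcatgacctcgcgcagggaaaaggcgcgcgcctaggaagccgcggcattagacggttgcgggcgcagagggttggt
Rrm2 (chr12:24708104-24708283, plus strand): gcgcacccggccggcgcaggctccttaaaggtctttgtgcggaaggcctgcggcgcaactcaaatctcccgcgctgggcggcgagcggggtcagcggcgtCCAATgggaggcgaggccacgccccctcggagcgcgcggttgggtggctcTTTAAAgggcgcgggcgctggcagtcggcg
Cdc6 (chr11:98908001-98908180, plus strand): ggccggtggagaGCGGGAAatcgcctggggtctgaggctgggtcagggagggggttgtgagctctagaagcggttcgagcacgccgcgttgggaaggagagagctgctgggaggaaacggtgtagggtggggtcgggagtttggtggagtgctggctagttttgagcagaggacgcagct
In Pcna the capitals mark a CCAAT box on the other strand, 87 bases before the start. Rrm2 has a CCAAT box 50 bases before the start, an E2F match 235 bases before it that lies outside the stretch shown, and a TTTAAA match that begins at the start site itself. Cdc6 has an E2F match on the other strand, 138 bases before the start. Starts here are those of the RefSeq windows, and GENCODE places some elsewhere. In GENCODE, Cdc6 begins at 98907801 on the plus strand and Pcna at 132253314 on the minus strand. The matches marked in Cdc6 and Pcna therefore lie inside the GENCODE genes. Rrm2 begins there at 24708241 on the plus strand, so its TTTAAA match also lies inside the gene model.

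The mitosis windows below belong to Sgo2a and Ccnb1, chosen by the same rule, and to Prc1. Prc1 was added after its values were seen, because the stretch shown holds a CCAAT box and a CHR match of the form TTTGAA.
Ccnb1 (chr13:100786457-100786636, minus strand): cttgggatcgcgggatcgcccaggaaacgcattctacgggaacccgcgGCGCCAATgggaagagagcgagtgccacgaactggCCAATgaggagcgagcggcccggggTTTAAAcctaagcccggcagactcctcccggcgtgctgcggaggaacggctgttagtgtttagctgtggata
Prc1 (chr7:80294301-80294480, plus strand): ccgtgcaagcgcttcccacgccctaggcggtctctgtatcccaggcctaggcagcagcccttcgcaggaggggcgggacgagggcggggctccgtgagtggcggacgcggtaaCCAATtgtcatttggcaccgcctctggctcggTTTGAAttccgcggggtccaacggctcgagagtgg
Sgo2a (chr1:57995824-57996003, plus strand): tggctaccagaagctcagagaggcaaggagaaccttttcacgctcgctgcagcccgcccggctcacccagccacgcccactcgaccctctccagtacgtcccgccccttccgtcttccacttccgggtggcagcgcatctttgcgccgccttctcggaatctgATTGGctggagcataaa
Ccnb1 holds CCAAT boxes beginning 99 and 67 bases before the start, the farther one overlapped by an E2F match. A CHR match begins 42 bases before the start. GENCODE begins Ccnb1 at 100786570, so the CHR match and the nearer CCAAT box lie inside that gene model. Prc1 holds a CCAAT box at 37 bases and a CHR match at 5 bases before the start. In the stretch shown, Sgo2a holds a single CCAAT box on the other strand, beginning 13 bases after the start. Both CHR and CCAAT were present in 17 of 25 mitosis genes (68.0%), against 13.4% of all genes with a window. CHR matches also lay close to the start in this class. In 17 of 25 mitosis genes (68.0%) one began within 50 bases of the start, against 9.54% of all genes and 2 of 14 S phase genes (14.3%).

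**Figure D1:**
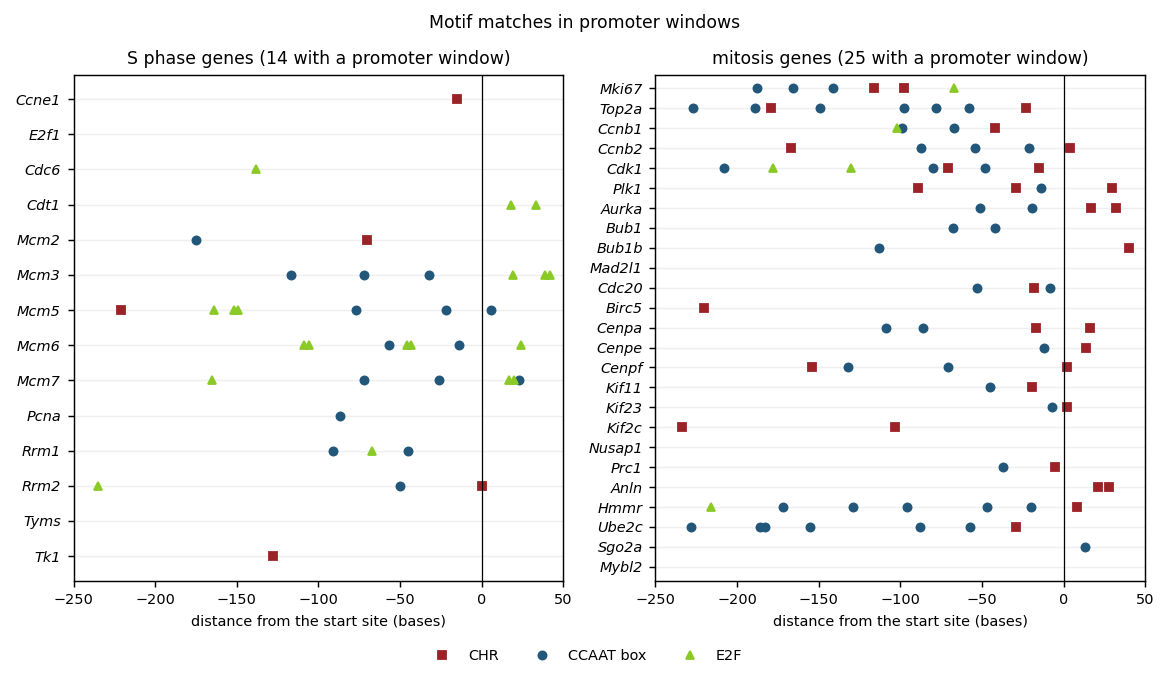
Distance of each motif match from the start site (x axis, bases, negative before the start) for the 14 S phase genes and 25 mitosis genes with a promoter window, using for each gene the window nearest its annotated start; squares are CHR, circles CCAAT boxes and triangles E2F matches. CHR squares crowd around the start in the mitosis panel, and E2F triangles are mostly in the S phase panel.

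The fitted differences were also set against the motifs. Among mitosis genes the median log2 fold change was 0.11 in the 20 with a CHR match and 0.19 in the 5 without one. In S phase genes it was 0.067 in the 8 with an E2F match and 0.094 in the 6 without one. The motif groups are small and were not tested.

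All cell cycle genes were read in every library. FPKM, the authors' length-scaled values, allow only a rough comparison of levels between genes, because the length annotated for a gene enters them. Rrm1, with 11012 annotated exon bases, had 4535 to 5223 counts per library and a mean of 10.2 FPKM. Mcm3, with 3752 exon bases, had fewer counts, 3410 to 3955, and a mean of 22.5 FPKM. The order of genes and the class medians below therefore depend in part on annotated length. FPKM of the members ran from 1.58 for the kinetochore gene Cenpf to 68.8 for Pcna, as means over the 6 libraries. The median of the members was 7.64 FPKM, and their median percentile was 80.7 among the 27262 genes with a read. Raw counts per member and library ran from 268 to 11067. The S phase genes stood higher, with a median of 10.8 FPKM against 6.01 for the mitosis genes. Pcna, the sliding clamp that holds DNA polymerase on its template, was the highest S phase gene at 66.2 ± 3.57 FPKM in DMSO and 71.4 ± 1.22 FPKM in RIP1i (SD, n = 3). Mcm3, a helicase subunit, came next at 22.4 ± 1.42 and 22.5 ± 0.181 FPKM. Among mitosis genes the most abundant were Top2a, the topoisomerase that untangles chromosomes, at 24.5 ± 1.58 and 27.1 ± 2.47 FPKM, and Mki67, a coat protein of mitotic chromosomes used as a proliferation marker, at 18.8 ± 0.338 and 19.4 ± 2.56 FPKM. At the low end, Mybl2 stood at 1.58 ± 0.060 and 1.67 ± 0.290 FPKM, and the thymidylate synthase gene Tyms at 1.83 ± 0.166 and 2.08 ± 0.227 FPKM. Within a gene the spread between libraries was small beside the distance between genes.

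**Figure D2:**
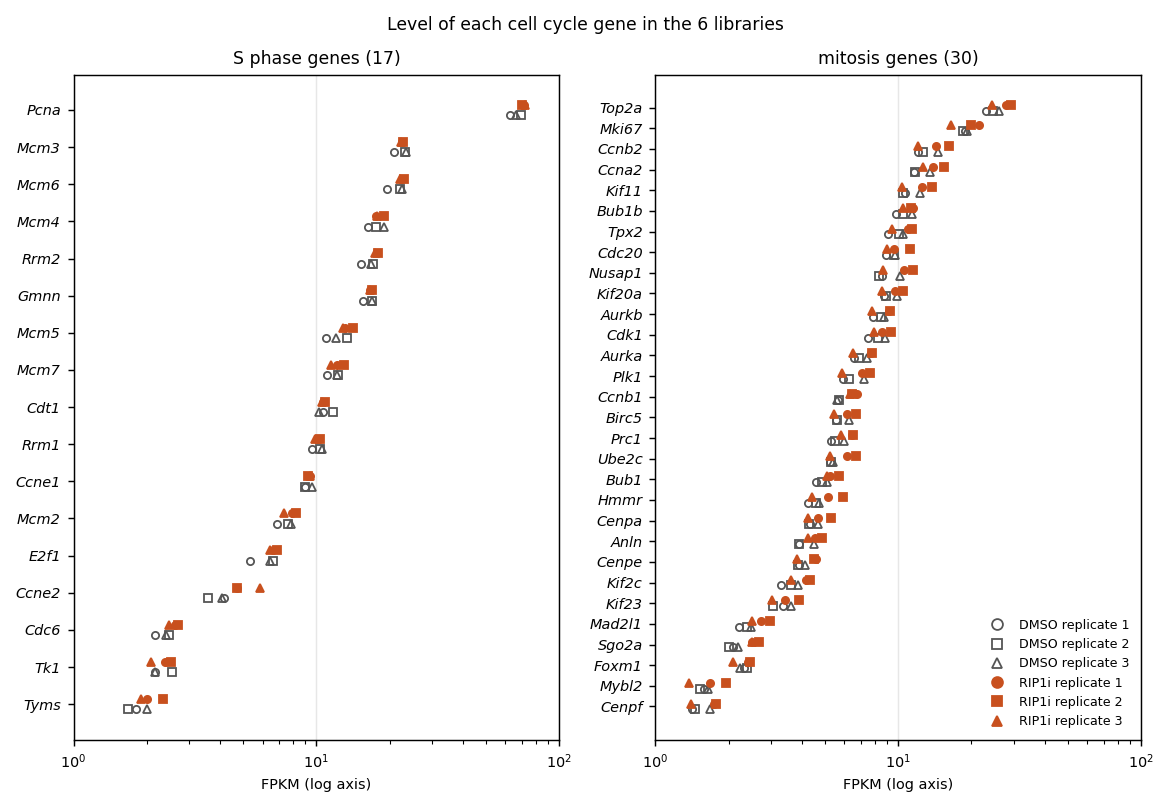
FPKM of each of the 47 genes (x axis, log scale) in the 6 libraries, ordered by mean level within each class; open grey symbols are DMSO and filled orange symbols RIP1i, with 1 symbol shape per replicate number. Levels span 1.58 to 68.8 FPKM between genes, while the 6 symbols of a gene lie close together.

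Entry into S phase is driven by cyclin E with its kinase and by E2F1. Ccne2, which encodes cyclin E2, stood at 14.6, 12.6 and 14.2 CPM (the read count scaled to library size) in DMSO replicates 1 to 3. In RIP1i replicates 1 to 3 it stood at 16.5, 16.4 and 20.7 CPM. The groups did not overlap, and RIP1i replicate 3 was the highest library. Its log2 fold change of 0.37 (95% interval 0.12 to 0.62, adjusted p = 0.777) was the most positive of the 47, and it was 0.25 without RIP1i replicate 3. Exons of Ints8 cover 17.4% of the exon bases of Ccne2, and Ints8 itself had a log2 fold change of 0.046. The paralog Ccne1, for cyclin E1, stood at 24.5 ± 0.816 CPM in DMSO and, in RIP1i, at 24.96 ± 0.337 CPM (SD, n = 3). Its log2 fold change was 0.030 (-0.079 to 0.14). The transcription factor gene E2f1 had 0.12 (-0.076 to 0.32). Whether Ccne2 and Ccne1 differed from each other was not tested.

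Origin licensing genes, 9 with the helicase subunits, had a median log2 fold change of 0.054, and 0 of the 9 had an unadjusted p under 0.05. ORC-bound CDC6 and CDT1 load the MCM2 to MCM7 ring onto DNA, and geminin, encoded by Gmnn, blocks CDT1 once S phase has begun. Cdc6 stood at 11.3, 12.9 and 12.5 CPM in DMSO and 13.7, 14.0 and 13.1 CPM in RIP1i. Here too the groups did not overlap, with a log2 fold change of 0.15 (-0.013 to 0.31, adjusted p = 0.777). Cdt1 was the only member fitted lower, at 33.7, 36.7 and 32.0 CPM in DMSO and 33.6, 34.0 and 33.5 CPM in RIP1i. All RIP1i values of Cdt1 lay within the DMSO range, and its log2 fold change was -0.016 (-0.15 to 0.11), with 0.032 without DMSO replicate 2. Gmnn had 0.027 (-0.093 to 0.15).

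The MCM helicase genes Mcm2 to Mcm7 were all fitted higher, with log2 fold changes from 0.0071 for Mcm3 to 0.15 for Mcm5. Mcm5 stood at 43.7, 53.5 and 48.1 CPM in DMSO and 52.5, 56.4 and 52.0 CPM in RIP1i, a log2 fold change of 0.15 (-0.030 to 0.32). Mcm2 stood at 48.0, 53.1 and 54.4 CPM in DMSO and 55.1, 57.0 and 51.8 CPM in RIP1i, a log2 fold change of 0.076 (-0.065 to 0.22). In both, DMSO replicate 1 was the lowest library and the groups overlapped. Mcm3 stood at 78.4, 87.0 and 87.4 CPM in DMSO and 84.5, 84.9 and 84.6 CPM in RIP1i. Its RIP1i values lay between those of DMSO, and the log2 fold change was 0.0071 (-0.11 to 0.12). Without DMSO replicate 1, Mcm3, Mcm4 and Mcm7 turned to -0.054, -0.017 and -0.0027.

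Genes of the replication fork and of nucleotide supply gave a mixed picture. Pcna stood at 150.6, 167.6 and 158.9 CPM in DMSO and 172.7, 167.6 and 175.4 CPM in RIP1i. No RIP1i value lay below a DMSO value, but DMSO replicate 2 and RIP1i replicate 2 were equal at the digits shown, and the log2 fold change was 0.11 (0.00066 to 0.22, adjusted p = 0.777). The processed pseudogene Pcna-ps2 held 28 to 46 counts per library, against 6698 to 7264 for Pcna. Ribonucleotide reductase makes deoxynucleotides from a large subunit, encoded by Rrm1, and a small one, encoded by Rrm2, whose level follows S phase. Rrm2 stood at 42.4, 47.6 and 46.5 CPM in DMSO and 49.2, 49.7 and 48.9 CPM in RIP1i, without overlap, a log2 fold change of 0.11 (-0.0054 to 0.23). Rrm1 stood at 106, 115 and 115 CPM in DMSO and 114, 114 and 110 CPM in RIP1i, within the DMSO range, at 0.0053 (-0.10 to 0.11). With median-of-ratios scaling Rrm1 turned to -0.00069, so its sign depended on the scaling. Tyms stood at 11.1, 10.2 and 12.1 CPM in DMSO and 12.3, 14.2 and 11.6 CPM in RIP1i, at 0.19 (-0.040 to 0.42). The thymidine kinase gene Tk1 had 0.024 (-0.20 to 0.25).

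FOXM1 and MYBL2 are the transcription factors that act on mitosis genes. Foxm1 stood at 13.3, 13.7 and 12.8 CPM in DMSO and 13.8, 14.1 and 12.1 CPM in RIP1i. The groups overlapped, with a log2 fold change of 0.0049 (-0.17 to 0.18) that turned to -0.00072 with median-of-ratios scaling. Mybl2 had 0.087 (-0.20 to 0.38). Foxm1 had the lowest log2 fold change of the 30 mitosis genes, all of which were fitted higher (29 with median-of-ratios scaling).

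Cyclins A and B with CDK1 drive the cell into mitosis. Ccnb1, which encodes cyclin B1 (chromosome 13, 100778650 to 100786570, minus strand), stood at 23.9, 24.1 and 23.6 CPM in DMSO and 28.6, 27.1 and 27.0 CPM in RIP1i. The DMSO libraries were nearly equal, and every RIP1i library lay above them. The log2 fold change was 0.21 ± 0.045 (SE), with an interval from 0.10 to 0.31 and an adjusted p of 0.777, and it stayed between 0.17 and 0.22 when each library was left out in turn. Ccna2, for cyclin A2, stood at 47.5, 47.9 and 54.8 CPM in DMSO and 57.1, 63.0 and 52.2 CPM in RIP1i. RIP1i replicate 3 lay below DMSO replicate 3, and the log2 fold change was 0.20 (0.0053 to 0.39, adjusted p = 0.777), with 0.12 without RIP1i replicate 2. Ccnb2, the other B cyclin, had 0.11 (-0.15 to 0.37) and 0.00098 without RIP1i replicate 2. Cdk1 stood at 37.2, 40.7 and 43.5 CPM in DMSO and 42.2, 45.9 and 39.7 CPM in RIP1i, with overlapping groups, at 0.074 (-0.099 to 0.25). Whether Ccnb1 and Ccnb2 differed was not tested.

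The mitotic kinases Plk1, Aurka and Aurkb, which build the spindle and correct chromosome attachment, had log2 fold changes from 0.070 to 0.091 with intervals that spanned 0. The spindle checkpoint holds cells in mitosis until every chromosome is attached, by keeping CDC20 away from the anaphase promoting complex. Mad2l1, for its core protein MAD2, stood at 18.6, 20.1 and 20.7 CPM in DMSO and 22.9, 24.8 and 21.2 CPM in RIP1i. The groups did not overlap, with a log2 fold change of 0.22 (0.047 to 0.39, adjusted p = 0.777). Bub1, for a checkpoint kinase, stood at 19.97, 21.2 and 22.1 CPM in DMSO and 22.9, 24.7 and 22.3 CPM in RIP1i, also without overlap, at 0.15 (0.0013 to 0.29, adjusted p = 0.777). The lowest RIP1i library of Bub1 and the highest DMSO library were close. The related Bub1b had 0.081, Cdc20 had 0.084, and Ube2c, the E2 enzyme of the anaphase promoting complex, had 0.19 (-0.021 to 0.39).

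Centromere and cohesion genes included the member with the smallest p-value. Sgo2a encodes shugoshin 2, which protects centromeric cohesion (chromosome 1, 57995971 to 58025899, plus strand). It stood at 14.7, 14.0 and 15.3 CPM in DMSO and 17.6, 18.6 and 17.6 CPM in RIP1i. Every RIP1i library lay above every DMSO library by more than the range within either group. The log2 fold change was 0.29 ± 0.057 (SE), with an interval from 0.16 to 0.42 and an adjusted p of 0.777. It stayed between 0.25 and 0.32 when each library was left out in turn. Exons of Kctd18 cover 35.0% of the exon bases of Sgo2a, and the strand setting of the counting is not given in the sources used here. Kctd18 itself was fitted at -0.096 (-0.31 to 0.11). The centromeric histone gene Cenpa, the kinetochore genes Cenpe and Cenpf, and Birc5, for the chromosomal passenger survivin, had log2 fold changes from 0.071 to 0.12, each with an interval that spanned 0.

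Spindle motors and assembly factors, namely Kif11, Kif2c, Tpx2, Nusap1 and Hmmr, had log2 fold changes from 0.10 to 0.19, and 0 of the 5 had an unadjusted p under 0.05. In each of the 5, RIP1i replicate 2 was the highest library. Cytokinesis genes divide the cell after the chromosomes have parted. Prc1, which bundles microtubules of the central spindle, stood at 43.7, 45.2 and 49.2 CPM in DMSO and 53.1, 53.6 and 48.4 CPM in RIP1i. RIP1i replicate 3 lay within the DMSO range, and the log2 fold change was 0.17 (0.025 to 0.31, adjusted p = 0.777). Anln, for the actin organiser anillin, had 0.15 (-0.018 to 0.31), and the motor genes Kif20a and Kif23 had 0.065 and 0.057.

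Top2a and Mki67 overlapped between groups. Top2a stood at 208, 222 and 235 CPM in DMSO and 251, 263 and 222 CPM in RIP1i, a log2 fold change of 0.15 (-0.019 to 0.32). Mki67 stood at 190, 187 and 193 CPM in DMSO and 217, 201 and 168 CPM in RIP1i. The DMSO libraries of Mki67 were nearly equal, while the RIP1i libraries included both the highest and the lowest of the 6. Its log2 fold change was 0.042 (-0.16 to 0.24), with 0.14 without RIP1i replicate 3 and -0.049 without RIP1i replicate 1.

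**Figure D3:**
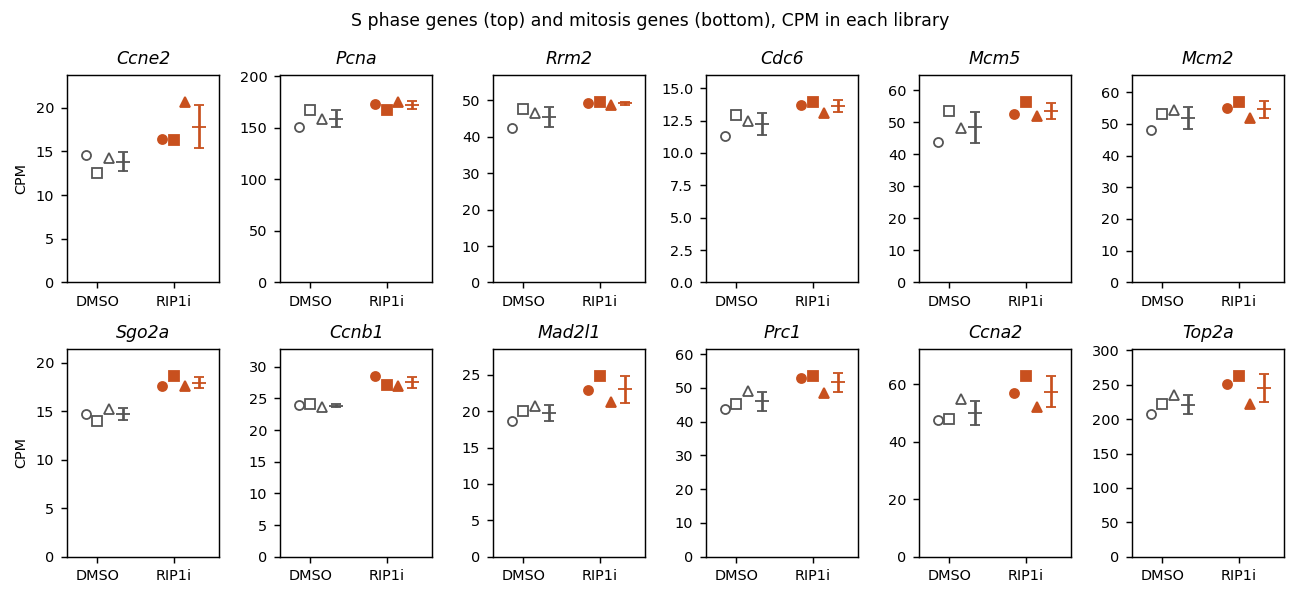
CPM in each library for 6 S phase genes (top row) and 6 mitosis genes (bottom row), with axes from 0; circles, squares and triangles are replicates 1, 2 and 3, and the bar beside each group is the mean and SD of 3 libraries. RIP1i lies above DMSO without overlap in Ccne2, Pcna, Rrm2, Cdc6, Sgo2a, Ccnb1 and Mad2l1, and the groups overlap in the other panels.

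The 95% intervals of all 47 genes lay within a 2-fold change in either direction, and those of 46 lay within 1.5-fold, with Ccne2 the exception. The intervals of 8 genes lay above 0, namely Ccne2 and Pcna of S phase and Sgo2a, Ccnb1, Mad2l1, Prc1, Ccna2 and Bub1 of mitosis. These are the 8 with an unadjusted p under 0.05, all higher in RIP1i, against 3.59% of all genes tested. Without overlap between groups were 4 S phase genes (Ccne2, Pcna, Rrm2 and Cdc6) and 4 mitosis genes (Sgo2a, Ccnb1, Mad2l1 and Bub1). That is 23.5% of the S phase genes and 13.3% of the mitosis genes, against 7.36% of all genes with every RIP1i library above every DMSO library.

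**Figure D4:**
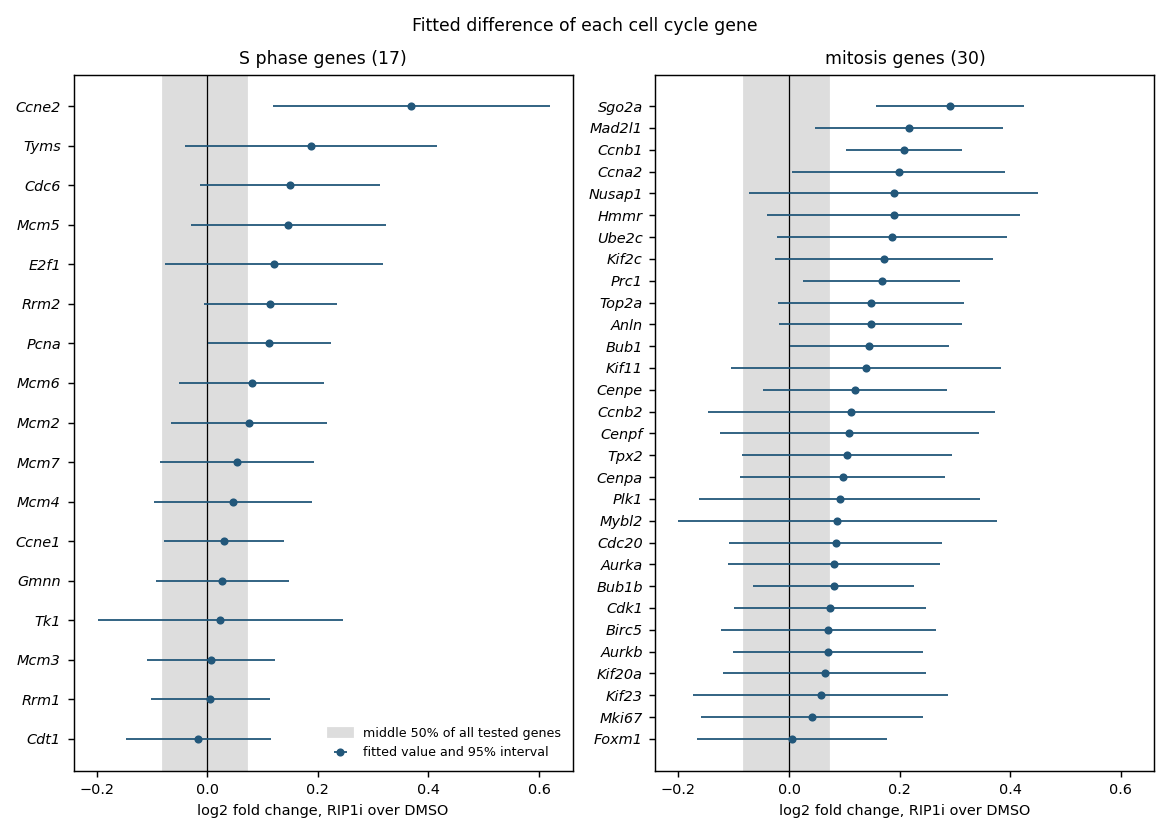
Fitted log2 fold change of RIP1i over DMSO (x axis) with its 95% interval for each of the 17 S phase and 30 mitosis genes, ordered by value; the grey band holds the middle 50% of all 14857 tested genes. All points but that of Cdt1 lie right of 0, and most intervals cross 0.

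Single libraries carried much of the difference. To give each class 1 level per library, log2 CPM values were set relative to each gene's own 6-library mean and then averaged across the class. For S phase genes it was -0.13, -0.00095 and -0.010 in DMSO replicates 1 to 3 and 0.037, 0.077 and 0.023 in RIP1i replicates 1 to 3. The groups did not overlap, and DMSO replicate 1 stood apart as the lowest. It was the lowest library in 12 of the 17 S phase genes, so leaving it out had to lower the class difference. Without it 10 of 17 were fitted higher and the median log2 fold change was 0.010. For mitosis genes the level was -0.12, -0.084 and 0.023 in DMSO and 0.094, 0.18 and -0.086 in RIP1i. Here RIP1i replicate 3 lay beside the lower DMSO libraries. RIP1i replicates 1 and 2 were above every DMSO library in 23 and 29 of the 30 mitosis genes, and RIP1i replicate 3 in 4. RIP1i replicate 2 was the highest library in 26 of the 30, so leaving it out likewise had to lower the class difference. Without it 24 were fitted higher and the median log2 fold change was 0.043. Without RIP1i replicate 3 that median was 0.19, and 19 of the 47 genes had an unadjusted p under 0.05, against 866 of 15138 genes in that fit. Without DMSO replicate 1 there were 3 of the 47, against 604 of 15074 genes, and without RIP1i replicate 1 also 3, against 699 of 15179. Without DMSO replicate 1 the log2 fold change was 0.020 for E2f1, 0.085 for Cdc6, 0.067 for Mcm5, 0.013 for Mcm2, 0.063 for Pcna, 0.054 for Rrm2 and 0.0057 for Cdk1. Without RIP1i replicate 2 it was 0.091 for Tyms, 0.091 for Bub1, 0.086 for Top2a, 0.097 for Ube2c and 0.093 for Anln. Leaving out another library raised each of these genes instead. The highest values so reached were 0.18 for E2f1, 0.18 for Cdc6, 0.22 for Mcm5 and 0.11 for Mcm2. They were 0.15 for Pcna, 0.14 for Rrm2, 0.13 for Cdk1 and 0.25 for Tyms. For Bub1, Top2a, Ube2c and Anln they were 0.18, 0.21, 0.27 and 0.21.

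Genes outside the 47, listed under the same processes, were examined in the same way. These lists too were chosen with earlier results of these data known. They were read in the same libraries as the members, so they are not an independent check. Over all genes tested, the share fitted higher was 51.0%. The share with an unadjusted p under 0.05 was 6.21%, made up of 3.59% higher and 2.62% lower. Of 38 other replication genes 32 (84.2%) were fitted higher (median 0.055), 4 (10.5%) at an unadjusted p under 0.05 and all 4 higher. These were Orc2 of the origin recognition complex at 0.13, the DNA polymerase alpha gene Pola1 at 0.13, Uhrf1, which helps copy DNA methylation, at 0.13, and the single-strand binding gene Rpa1 at 0.12. Without DMSO replicate 1, Pola1, Uhrf1 and Rpa1 stood at 0.085, 0.077 and 0.068. Of 40 other mitosis genes 38 (95%) were fitted higher (median 0.12), 9 (22.5%) at an unadjusted p under 0.05 and all 9 higher. The smallest p-values belonged to the kinetochore gene Spc25 at 0.25 (0.11 to 0.39), the condensin gene Ncapg at 0.26 (0.10 to 0.43), the kinase gene Melk at 0.27 (0.071 to 0.48) and H2afz, for the histone variant H2A.Z, at 0.12 (0.029 to 0.21). H2afz was highest in RIP1i replicate 3, at 140.5 CPM, the RIP1i library in which the level of its list was lowest. No gene of either list passed over all genes. The level of the other mitosis genes was -0.11, -0.077 and 0.015 in DMSO and 0.086, 0.15 and -0.070 in RIP1i, in the same order of libraries as the mitosis genes except that RIP1i replicate 3 and DMSO replicate 2 changed places.

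Regulators of G1 and of exit from the cycle were counted against the same shares, namely 51.0% of all genes fitted higher and 6.21% with an unadjusted p under 0.05. Of 12 genes for G1 cyclins, their kinases and E2F partners 9 were fitted higher (median 0.040), and 1 (8.33%, near the share of all genes) had an unadjusted p under 0.05. That was Cdk6, a kinase that works with D cyclins, at 82.1, 80.2 and 76.3 CPM in the DMSO libraries and at 87.7, 89.8 and 88.1 CPM in the RIP1i libraries, without overlap, for a log2 difference of 0.15 (0.060 to 0.25). Myc had -0.11 (-0.27 to 0.045), the E2F partner gene Tfdp1 0.056, and Skp2, a ubiquitin ligase subunit that removes p27, 0.070. Of 23 genes for CDK inhibitors, pocket proteins and the p53 axis 15 (65.2%) were fitted higher (median 0.049), and 3 had an unadjusted p under 0.05. Trp53, which encodes p53, stood at 40.5, 37.6 and 37.2 CPM in the DMSO libraries and at 32.8, 34.3 and 34.1 CPM in the RIP1i libraries, without overlap, for a log2 difference of -0.19 (-0.30 to -0.074). Rb1, the retinoblastoma protein gene that restrains E2F, had 0.21 (0.054 to 0.37), the p53 target Ccng1 0.17 (0.028 to 0.31), and the E2F repressor gene E2f7 0.20 (-0.034 to 0.43). Ccng1 stood at 0.10 without RIP1i replicate 2, and E2f7 at 0.13 without RIP1i replicate 1. None of these passed over all genes tested.

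The culture itself varied between libraries. Library totals ran from 40264902 to 44862310 counts. Macrophage genes were high in every library, with Csf1r, the M-CSF receptor gene, at 1280 to 1560 CPM and Adgre1, which encodes F4/80, at 511 to 711 CPM. Of 10 macrophage markers 8 were fitted lower in RIP1i (median -0.051), from -0.27 for the Fc receptor gene Fcgr1 to 0.057 for Adgre1, and 0 of the 10 had an unadjusted p under 0.05. Their summed level ran from 51130 to 59030 CPM in DMSO and from 44440 to 53970 CPM in RIP1i. Most of that sum was Lyz2, at 46370 to 54100 CPM in DMSO and 39870 to 49300 CPM in RIP1i. Of 10 markers of marrow precursors 6 were fitted higher in RIP1i and 4 lower, down to -0.37 for Flt3. Cd34 was the 1 of the 10 (10%) with an unadjusted p under 0.05, against 6.21% of all genes. It stood at 6.21, 6.84 and 6.28 CPM in DMSO and 8.23, 6.89 and 7.51 CPM in RIP1i. The groups did not overlap, against 7.36% of all genes with every RIP1i library above, and the log2 difference was 0.23 (0.0072 to 0.45). Mpo and Elane stood at 0.604 to 2.14 CPM, Kit stood at 157 to 186 CPM, and the T cell gene Cd3e held at most 1 read per library. The summed level of 12 stromal markers, collagen genes among them, ran from 106 to 410 CPM in DMSO and from 93.3 to 270 CPM in RIP1i, and 11 of the 12 were fitted lower in RIP1i. It was highest in DMSO replicate 2 and lowest in RIP1i replicate 2. The summed level of 10 neutrophil markers ran from 1568 to 2137 CPM in DMSO and from 1584 to 2134 CPM in RIP1i. That of 10 myeloid precursor markers ran from 177 to 206 and from 174 to 212 CPM. For 10 dendritic cell markers it ran from 1294 to 1497 and from 1416 to 1617 CPM. A single gene held most of each sum, namely Mmp8 (1307 to 1461 CPM), Kit (157 to 186 CPM) and Itgax (1173 to 1402 CPM). Among the other neutrophil markers S100a8 ran from 66.0 to 196 CPM and Ltf from 23.9 to 87.6 CPM over the 6 libraries. The mean gene-centred log2 CPM of the neutrophil markers was 0.18, -0.71 and 0.47 in DMSO and 0.17, 0.49 and -0.61 in RIP1i. The neutrophil, precursor and dendritic sums were lower in RIP1i replicate 3 than in RIP1i replicates 1 and 2, as the mitosis level was. Within DMSO they did not follow it. These sums were lowest in DMSO replicate 2, while the mitosis level was lowest in DMSO replicate 1. Of the 9 dendritic cell markers tested 7 were fitted higher in RIP1i, against 51.0% of all genes tested. Their median was 0.12, and 0 had an unadjusted p under 0.05, against 6.21% of all genes. Of the 10 neutrophil markers 9 were fitted higher in RIP1i. Csf3r was the 1 fitted lower, at -0.20 (-0.36 to -0.035), without overlap. It had an unadjusted p under 0.05, against 2.62% of all genes lower at that threshold. Without both libraries of extreme stromal level, an alternative chosen after seeing the data, 17 of 17 S phase genes and 19 of 30 mitosis genes were fitted higher, with medians of 0.036 and 0.033. RIP1i replicate 2 is also the highest library of the mitosis genes, so leaving it out had to lower their difference. The part of these other cells in the cell cycle differences was not tested.

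**Figure D5:**
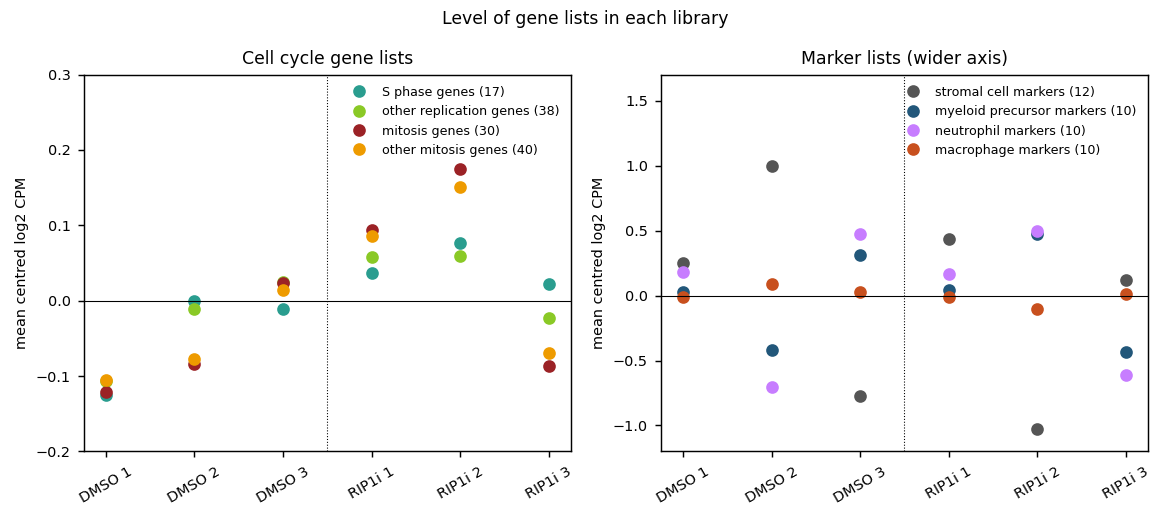
Level of gene lists in each library (y axis, mean of gene-centred log2 CPM; number of tested genes in brackets), with cell cycle lists on the left and marker lists on a wider axis on the right. RIP1i replicates 1 and 2 are the highest libraries of both mitosis lists, RIP1i replicate 3 lies among the DMSO libraries, and stromal markers are highest in DMSO replicate 2 and lowest in RIP1i replicate 2.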

How the data were processed

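The authors deposited raw read counts per gene, 1 column per library, and FPKM values of the same genes. Tools named, per the submitters' processing notes, are the build mm10, STAR 2.5.3a, featureCounts, Subread 1.4.6-p3, CASAVA 1.8.4 and DESeq2 1.14.0. Tool roles, annotation and strand setting were not given in the sources used here. The deposited FPKM follow the counts with a library factor within 0.000137% of the median-of-ratios factor over 1978 well-covered genes, and add no measurement.

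Counts were filtered with filterByExpr (minimum count 10, total 15), scaled by TMM and fitted on all 14857 remaining genes with edgeR's quasi-likelihood test (version 4.0.16, R 4.3.3; 2-sided) on all 6 libraries, with group alone in the model and Benjamini-Hochberg adjustment. The standard error comes from the F statistic and the interval from the t distribution. The fit was tested on simulated data. Levels use a prior count of 2. Fits with limma 3.58.1 and DESeq2 1.42.0, other scaling, filters, a replicate block and omitted libraries were alternatives. Coordinates and exon overlap come from GENCODE vM21 (GRCm38, the assembly of mm10).

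Members and lists were chosen with earlier results of these data known. All 47 members could be named. Given with every library were 7 well-known members (Mki67, Top2a, Cdk1, Ccnb1, Pcna, Mcm2 and Rrm2), and per class the 6 smallest p, the 2 highest FPKM and the 2 lowest fold changes. From other lists the 4 genes with the smallest p were named.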

Additional observations from a re-analysis of the deposited data

How the results depend on the processing

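Over 15 alternatives 0 of the 47 cell cycle genes passed the adjusted threshold, with the smallest adjusted p of any member at 0.378, in DESeq2. Over all genes, DESeq2 called 1 and limma on log2(FPKM + 1) without a filter called 9, where edgeR called 0. The fit reported had 8 members at an unadjusted p under 0.05, against 923 of all 14857 genes tested, and both counts moved with the setting. Members were 5 with median-of-ratios scaling (898 of all genes) and 6 in DESeq2 (571 of all genes). With limma they were 5 on log2(FPKM + 1) (945 of all genes) and 4 on log2(FPKM + 0.1) (929 of all genes). Without a filter, limma on log2(FPKM + 1) gave 3 (1560 of 27262 genes). Same-numbered libraries deviated from their group means with correlations of 0.0058, -0.53 and -0.48, so the replicate numbers show no sign of pairing the libraries. Across numbers, DMSO replicate 3 and RIP1i replicate 2 correlated at 0.60, and DMSO replicate 2 and RIP1i replicate 3 at 0.40. The remaining pairs of unlike number lay between -0.31 and 0.30. Whether the libraries are matched in another way was not tested. With the replicate block 5 members had an unadjusted p under 0.05, against 413 of 14857 genes, and 0 passed. In that fit 46 were fitted higher, and the medians were 0.076 for S phase and 0.11 for mitosis.

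Leaving out each library in turn gave medians from 0.010 to 0.11 for S phase genes and from 0.043 to 0.19 for mitosis genes, and 0 calls over all genes. It gave 37 to 46 members fitted higher, and 3 to 19 at an unadjusted p under 0.05. The count over all genes at that threshold ran from 577 to 1052. Genes whose sign changed in such omissions were Cdt1 (-0.065 to 0.032), Gmnn (-0.026 to 0.044), Mcm3 (-0.054 to 0.031), Mcm4 (-0.017 to 0.096), Mcm7 (-0.0027 to 0.089), Rrm1 (-0.046 to 0.025), Tk1 (-0.043 to 0.099), Mki67 (-0.049 to 0.14), Cdc20 (-0.014 to 0.14), Birc5 (-0.0068 to 0.14), Kif20a (-0.0096 to 0.13), Kif23 (-0.049 to 0.14), Foxm1 (-0.046 to 0.066) and Mybl2 (-0.046 to 0.20). With median-of-ratios scaling Rrm1 was at -0.00069 and Foxm1 at -0.00072, and in DESeq2 they were at -0.00066 and -0.00062. Foxm1 was at -3.68e-05 with limma on log2(FPKM + 1), with or without a filter, and at -0.00084 on log2(FPKM + 0.1). Without both libraries of extreme stromal level Cdt1 was at 0.018, Mki67 at -0.0014, Ccnb2 at -0.022, Plk1 at -0.022, Cdc20 at -0.0021, Birc5 at -0.032, Cenpa at -0.019, Kif11 at -0.0047, Kif20a at -0.032, Kif23 at -0.11, Foxm1 at -0.025 and Mybl2 at -0.073. The cause of these changes was not tested. With 3 libraries a group, the 95% interval of a member extended by a median of 0.17 on either side, more than either class median.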
